A study of Mus musculus with 6 samples.

Results

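The 10 genes described here are Fos, Fosb, Jun, Junb, Egr1, Egr2, Ier2, Nr4a1, Nr4a3 and Dusp1, which are immediate early genes. They were chosen by name as a functional group, with earlier results of these data known. All 10 were found among the 54532 genes of the deposited count table, and all 10 were among the 16003 genes with enough counts to be tested. The measurements are RNA-seq counts from eWAT, the white fat that lies next to the epididymis in male mice, of 6 C57BL/6 mice. The cachexia group (n = 3) is labelled as mice with tumor-induced cachexia. Per the study's methods these were young adult males that received LLC cells, a Lewis lung carcinoma line derived from the same strain, under the skin and lost weight several weeks later. The control group (n = 3) is labelled as normal mice of the same strain, and what they received in place of tumor cells was not given in the sources used here. The model rests on 1 tumor cell line. The labels number the samples within a group without tying them to animals in any other way, so the p-values measure only the spread between these samples.

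Immediate early genes are transcribed within minutes of a stimulus to a cell, from promoters that already carry the needed transcription factors, and without new protein synthesis. Growth factors, cytokines, catecholamines, stretch and hypoxia switch them on through the MAP kinases, calcium and cAMP, and their mRNAs are short-lived. Fos and Fosb join with Jun and Junb to form AP-1, the dimeric transcription factor that binds DNA. Egr1 and Egr2 are zinc finger transcription factors, Nr4a1 and Nr4a3 are orphan nuclear receptors that need no ligand, Ier2 is a small nuclear protein, and Dusp1 is a phosphatase that switches the MAP kinases off again. In fat, Egr2 is known for promoting the early steps of adipocyte differentiation, and NR4A receptors respond to beta-adrenergic signals.

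The promoter letters of the genes on which the results turn are shown first. They are Fos, the most abundant of the 10 in control mice, and Junb, Egr2 and Nr4a3, the genes with an unadjusted p-value under 0.05. RefSeq windows (GRCm38.p6) of the 250 bases before a gene's start were examined for 8 of the 10 genes, all but Egr1 and Ier2. Capitals mark TGACG, the core of the cAMP response element, on either strand (CGTCA is the same element read on the other strand), TATAAA, and the CArG box, the element that serum response factor binds. The windows are Fos at chr12:85473640-85473889 on the plus strand, Junb at chr8:84978749-84978998 on the minus strand, and Egr2 at chr10:67537619-67537868 on the plus strand. For Nr4a3, the 98 bases at chr4:48045055-48045152 on the plus strand are shown, which end before the gene's start in the deposited files. The Egr2 window is 1 of 5 that RefSeq gives, lies inside the gene's span and meets no annotated exon.
Fos: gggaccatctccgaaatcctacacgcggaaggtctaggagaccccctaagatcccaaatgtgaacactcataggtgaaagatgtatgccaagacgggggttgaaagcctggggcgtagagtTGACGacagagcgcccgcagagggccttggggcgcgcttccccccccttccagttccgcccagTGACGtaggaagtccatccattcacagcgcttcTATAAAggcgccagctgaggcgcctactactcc
Junb: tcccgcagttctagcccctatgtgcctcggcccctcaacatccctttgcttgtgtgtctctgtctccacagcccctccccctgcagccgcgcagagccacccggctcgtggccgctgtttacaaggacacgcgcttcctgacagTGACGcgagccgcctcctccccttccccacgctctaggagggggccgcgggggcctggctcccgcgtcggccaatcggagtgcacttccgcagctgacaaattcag
Egr2: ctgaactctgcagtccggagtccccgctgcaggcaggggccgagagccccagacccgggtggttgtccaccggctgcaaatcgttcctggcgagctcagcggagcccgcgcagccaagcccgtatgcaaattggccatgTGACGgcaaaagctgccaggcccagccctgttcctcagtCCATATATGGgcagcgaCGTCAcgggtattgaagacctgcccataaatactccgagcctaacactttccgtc
Nr4a3: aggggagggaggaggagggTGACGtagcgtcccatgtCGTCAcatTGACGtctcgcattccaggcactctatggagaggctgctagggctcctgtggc

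The element TGACG lay in a window of 7 of the 8 examined genes, all but Jun, and in at least 1 window of 19.8% of 27025 genes. In Fos it began 129 and 66 bases before the start, in Junb 106 bases, and in the Egr2 window shown 111 and 55 bases. In Nr4a3 it began 231, 213, 205 and 147 bases before the RefSeq start, which lies inside the gene's span in the deposited files. The last of these sites is beyond the stretch shown and within that span. A CArG box was found for Egr2 alone among the 8 genes, and in 1.62% of all genes. In the Egr2 window shown it began 72 bases before the start. RefSeq gives 5 windows for Egr2, which allow more matches than a gene with fewer windows has. The window at the gene's start in the deposited files, chr10:67535249-67535498, held neither a CArG box nor TGACG. The remaining windows held a CArG box 72, 73 or 133 bases before their RefSeq starts, and that at chr10:67537316-67537565 held no TGACG. The longer TGACGTCA, which contains TGACG, was found in Dusp1 and in 1.77% of all genes. TATAAA was found in Fos, 33 bases before the start, and in 14.3% of all genes. The AP-1 element TGANTCA was in none of the 8 windows and in 7.82% of all genes. These matches describe letters in a window of fixed length and say nothing of binding in these samples.

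Most of the 10 genes were strongly expressed in both groups, and 1 of them, Egr2, passed the test between cachectic and control mice (edgeR, quasi-likelihood test, Benjamini-Hochberg adjusted p under 0.05 over all tested genes). Egr2 was lower in cachectic mice and no gene of the 10 was called higher. Of all tested genes, 17.6% were called in either direction, with 8.63% lower and 9.0% higher in cachectic mice. The share of 1 in 10 is below that of all genes by less than 1 gene. At an unadjusted p under 0.05, Junb and Nr4a3 were higher and Egr2 was lower. The share of all tested genes at that cutoff is not given, here or for the lists below. It cannot be under the 17.6% called after adjustment, so counts at the unadjusted cutoff are not read as a result. DESeq2 gave 1 higher and 1 lower of the 10, against 3884 called of all 16003 tested genes. Limma-voom gave 1 lower, against 2764 called of all tested genes. Values of the groups did not overlap in 2 of the 10 genes, Junb and Egr2, against 40.5% of all tested genes. The median log2 fold change of the 10 was 0.08, against -0.00 over all tested genes, with 5 of the 10 above 0.

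**Figure D1:**
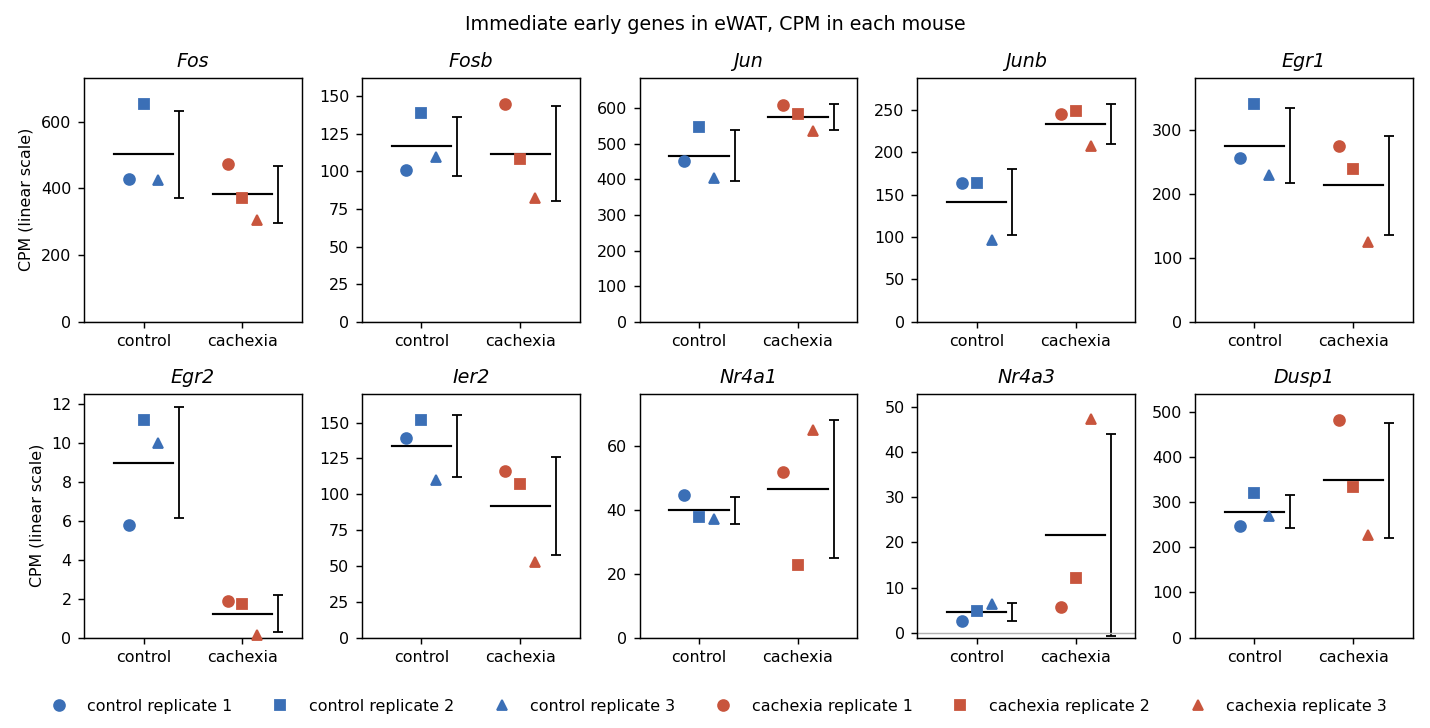
CPM (counts scaled to the normalized library size, linear axis) of each of the 10 genes in the 3 control mice (blue) and the 3 cachectic mice (red), with the replicate number as the marker shape. Horizontal lines are group means and bars beside them are ± SD (n = 3). The Egr2 points of the cachectic mice, 0.131 to 1.86 CPM, lie below all control points, and the Nr4a3 point of cachexia replicate 3, 47.2 CPM, stands above all others.

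The total count per sample was between 18475204 and 18855546 in control mice and between 14928766 and 17278966 in cachectic mice, so that counting error weighs most in Egr2 and Nr4a3, the genes with the fewest reads. Cachexia replicate 3 stood apart in these genes. It had the lowest value of the 6 mice in 6 of the 10, namely Fos, Fosb, Egr1, Egr2, Ier2 and Dusp1, and the highest in Nr4a1 and Nr4a3. Over all tested genes that mouse was lowest in 23.4% and highest in 23.7%. The stress-inducible chaperones Hspa1a and Hspa1b, singled out after their values were seen, were at 101 and 126 CPM in that mouse, against 10.5 to 17.4 and 26.2 to 37.4 CPM in the other 5. Values without cachexia replicate 3 are therefore given beside the results that it moves most.

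Levels compared between genes need a correction for length, and for this the deposited FPKM values were used. In control mice the order ran from Fos (211 ± 54.5 FPKM, SD, n = 3) and Jun (145 ± 22.2) through Dusp1 (102 ± 13.2), Ier2 (87.0 ± 13.9), Junb (61.0 ± 16.7) and Egr1 (60.6 ± 12.7) to Fosb (18.5 ± 3.08), Nr4a1 (11.3 ± 1.26), Egr2 (2.62 ± 0.821) and Nr4a3 (0.757 ± 0.314). Neighbours in that order whose means ± SD overlapped were Fos and Jun, Dusp1 and Ier2, Ier2 and Junb, and Junb and Egr1. In cachectic mice Jun came first at 177 ± 11.8 FPKM, Fos followed at 159 ± 35.6 FPKM, and Egr2 came last at 0.357 ± 0.277 FPKM. Between them stood Dusp1 (126 ± 46.7), Junb (99.3 ± 10), Ier2 (59.1 ± 22.0), Egr1 (46.5 ± 17.1), Fosb (17.5 ± 5.01), Nr4a1 (13.0 ± 6.05) and Nr4a3 (3.54 ± 3.65). There the neighbours that stood apart by more than their SDs were only Junb from Ier2 and Egr1 from Fosb. Fos ranked 153rd of all listed genes by mean FPKM in control mice and Jun ranked 196th in cachectic mice, so both belonged to the abundant mRNAs of the tissue as sampled, whereas Egr2 was scarce in each mouse and Nr4a3 in each but cachexia replicate 3, where it reached 7.71 FPKM. The time from death to preservation of the tissue was not given in the sources used here. Its part in the levels of these fast-responding genes was not tested.

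Fos (ENSMUSG00000021250; chromosome 12, 85473890 to 85477273, plus strand) encodes the partner that gives AP-1 its strong activity. The gene stood at 428, 654 and 425 CPM in control replicates 1, 2 and 3 and at 472, 370 and 304 CPM in cachexia replicates 1, 2 and 3. The groups overlapped, because cachexia replicate 1 was above 2 of the control mice. The log2 fold change was -0.40 (SE 0.24, 95% interval -0.96 to 0.16, edgeR adjusted p = 0.287). Leaving out control replicate 2 gave -0.16, and leaving out cachexia replicate 3 gave -0.25. Fosb (chromosome 7, 19302696 to 19310051, minus strand), a close relative that accumulates with repeated stimulation as its shortened form, stood at 101, 139 and 109.8 CPM in control and 145, 108 and 82.0 CPM in cachectic mice. The highest and the lowest value of the 6 were both in cachectic mice, and the log2 fold change of -0.06 (SE 0.22, interval -0.58 to 0.45, adjusted p = 0.869) became 0.12 without cachexia replicate 3 and 0.08 without control replicate 2.

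Jun (chromosome 4, 95049034 to 95052222, minus strand), the AP-1 subunit that can pair with itself or with Fos, was at 452, 546 and 403 CPM in control and 608, 583 and 535 CPM in cachectic mice. Of the 10 genes it varied least within the cachexia group, where the highest value was 1.14 times the lowest. Cachexia replicate 3 at 535 CPM was below control replicate 2 at 546 CPM, and the groups thus overlapped by that pair alone. In the edgeR fit its log2 fold change was 0.30 (SE 0.17, interval -0.10 to 0.70, adjusted p = 0.264), and it lay between 0.20 and 0.42 when each mouse was left out.

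Junb (chromosome 8, 84974484 to 84978718, minus strand), a JUN protein that activates less strongly and can restrain Jun, was at 164, 164 and 97.0 CPM in control mice and at 245, 249 and 207 CPM in cachectic mice. Every cachectic mouse was above every control mouse. The means were 142 ± 38.7 and 234 ± 23.4 CPM (SD, n = 3), a log2 fold change of 0.72 (SE 0.22, interval 0.21 to 1.23), with an unadjusted edgeR p of 0.0119 and an adjusted p of 0.0599, just above the threshold. DESeq2 on the same counts gave a log2 fold change of 0.72 and an adjusted p of 0.0151. A two-sided exact permutation test gave p = 0.1, the smallest that 3 against 3 mice allow. Leaving out each mouse moved the log2 fold change between 0.50 and 0.84. Junb shares 351 bases with Prdx2 on the other strand, and whether counting used strand was not given in the sources used here. Prdx2, a peroxiredoxin, was at 114 to 121 CPM in control and 109.6 to 120.4 CPM in cachectic mice (log2 fold change -0.03, edgeR adjusted p = 0.884). Jun likewise shares 689 bases with the antisense gene Junos, which was at 0.453 to 1.72 CPM in control and 1.34 to 2.36 CPM in cachectic mice, far below Jun.

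Egr1 (chromosome 18, 34859823 to 34864984, plus strand), the EGR factor that most stimuli induce, was at 255, 340 and 229 CPM in control mice and at 274, 239 and 125 CPM in cachectic mice. Cachexia replicate 3 was lowest and the other cachectic mice lay within the control range. Its log2 fold change was -0.37 (SE 0.30, interval -1.05 to 0.31, edgeR adjusted p = 0.415), and it was -0.10 without cachexia replicate 3 and -0.19 without control replicate 2.

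Egr2 (chromosome 10, 67535475 to 67542188, plus strand), the gene whose window shown above held a CArG box, was at 5.78, 11.2 and 10 CPM in control mice. In cachectic mice it was at 1.86, 1.72 and 0.131 CPM. Every cachectic mouse was below every control mouse, and the mean fell from 9.01 ± 2.85 to 1.24 ± 0.961 CPM (SD, n = 3), to 0.139 of the control level in the fit. The log2 fold change was -2.85 (SE 0.69, interval -4.45 to -1.24, edgeR adjusted p = 0.0294), and the exact permutation test gave its smallest p of 0.1. These levels rest on 116, 196 and 177 reads in control and 32, 28 and 2 reads in cachectic mice. The count of 2 in cachexia replicate 3 has an exact Poisson 95% interval of 0.242 to 7.22 reads, or 0.0158 to 0.473 CPM, which covers counting error only and stays below the other 5 mice. Without cachexia replicate 3 the log2 fold change was -2.32 and the gene was still called. The call was lost without control replicate 2 (-2.66, adjusted p = 0.09), control replicate 3 (-2.77, adjusted p = 0.0946), cachexia replicate 1 (-3.26, adjusted p = 0.0575) or cachexia replicate 2 (-3.14, adjusted p = 0.0629), with the direction unchanged in these fits. The biological coefficient of variation of Egr2, the relative spread between mice of a group beyond counting error, was 0.563, against a median of 0.216 over all tested genes. The trend fitted for genes of like abundance was 0.364.

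Nr4a1 (chromosome 15, 101254269 to 101274795, plus strand), the receptor also known as Nur77, was at 44.9, 38.0 and 37.1 CPM in control mice and at 52.1, 22.8 and 65.2 CPM in cachectic mice. The control mice lay close together, whereas the cachectic mice lay on both sides of them. The log2 fold change of 0.22 (SE 0.33, interval -0.55 to 0.99, edgeR adjusted p = 0.683) turned to -0.09 without cachexia replicate 3 and was 0.55 without cachexia replicate 2.

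Nr4a3 (chromosome 4, 48045153 to 48086447, plus strand), the related receptor NOR1, was at 2.54, 4.87 and 6.34 CPM in control mice and at 5.71, 12.1 and 47.2 CPM in cachectic mice. Cachexia replicate 1 lay between control replicates 2 and 3, and cachexia replicate 3 was 8.28 times cachexia replicate 1. The means were 4.58 ± 1.91 and 21.7 ± 22.4 CPM (SD, n = 3), and the log2 fold change was 2.24 (SE 0.74, interval 0.53 to 3.95, unadjusted p = 0.0167, edgeR adjusted p = 0.0738). Without cachexia replicate 3 it was 0.96 (adjusted p = 0.216), and without cachexia replicate 1 it was 2.69 (adjusted p = 0.0366). Nr4a3 had the highest coefficient of variation of the 10 genes, 0.586, above the value of 0.438 that 90% of all tested genes stay under. The trend for genes of like abundance was 0.251.

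Ier2 (chromosome 8, 84661331 to 84662852, minus strand), a gene of a single exon whose protein acts in the nucleus, was at 139, 152 and 110.1 CPM in control mice and at 116, 107 and 52.9 CPM in cachectic mice. Cachexia replicate 3 was again the lowest, and cachexia replicate 1 lay above control replicate 3. The log2 fold change was -0.54 (SE 0.28, interval -1.20 to 0.11, edgeR adjusted p = 0.219) and -0.26 without cachexia replicate 3.

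Dusp1 (chromosome 17, 26505590 to 26508519, minus strand), which removes phosphate from p38, JNK and ERK and so ends the response, was at 247, 319 and 269 CPM in control mice. In cachectic mice it was at 482, 334 and 228 CPM, which spans the whole control range on both sides. The log2 fold change was 0.32 (SE 0.27, interval -0.30 to 0.94, edgeR adjusted p = 0.440), it was 0.01 without cachexia replicate 1, and it was 0.55 without cachexia replicate 3.

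**Figure D2:**
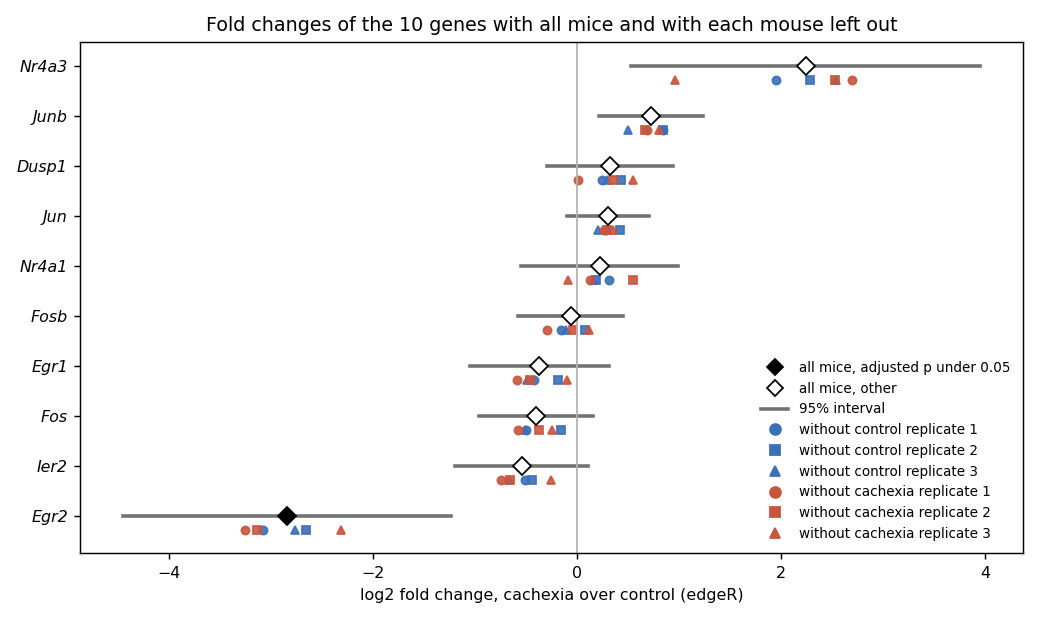
Log2 fold change of cachectic over control mice (edgeR) of each of the 10 genes. Diamonds are the fit on all 6 mice (filled where adjusted p is under 0.05, which holds for Egr2 at -2.85), grey lines are 95% intervals, and the small markers under each line are the fits that leave out 1 mouse, blue for a control and red for a cachectic mouse. Nr4a3 moves from 2.24 to 0.96 without cachexia replicate 3, while Egr2 stays between -3.26 and -2.32.

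The spread within the cachexia group was uneven over the 10 genes. The highest value was 1.14 to 2.86 times the lowest in 8 genes, 8.28 times in Nr4a3 and 14.2 times in Egr2. Within the control group the same ratio lay between 1.21 (Nr4a1) and 2.49 (Nr4a3). Control replicate 2 was the highest of the 6 mice in Fos, Egr1, Egr2 and Ier2, that is 4 of the 10 genes, against 13.5% of all tested genes. Cachexia replicate 1 was the highest in Fosb, Jun and Dusp1, against 11.8% of all tested genes. The 6 protein-coding genes outside the group whose log2 CPM over the 6 mice was most like the mean profile of the 10 were Rab2b (Pearson r = 0.984), Rhbdl1 (0.971), Afg3l1 (0.965), Zfp454 (0.957), Afg1l (0.957) and Bcs1l (0.954). Not all of the 10 genes shared that profile. The correlation of each with the mean of the other 9 was high for Fosb (0.926), Fos (0.921) and Egr1 (0.789). It was 0.569 for Ier2, 0.529 for Dusp1 and 0.205 for Jun. It was below 0 for Junb (-0.254), Egr2 (-0.316), Nr4a1 (-0.461) and Nr4a3 (-0.851). Genes with large changes, such as Nr4a3, weigh most in such a mean. Gene by gene, Egr2 correlated positively with Ier2 (0.85), Fos (0.78), Egr1 (0.78) and Fosb (0.53), and near 0 with Dusp1 (0.05). With Nr4a3 (-0.83), Junb (-0.68), Jun (-0.52) and Nr4a1 (-0.39) its correlation was negative. With 6 points and 16003 genes, high values such as those of the 6 genes outside the group are found by search. None of these 6 genes passed the test between the groups.

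The relative make-up of each transcription factor family was compared as shares of the family's summed FPKM in each mouse, a measure within 1 mouse that needs no scaling between mice. The relatives Fosl1, Fosl2, Jund, Egr3, Egr4 and Nr4a2 were added to the 10 genes for this purpose. There were 14 shares, the smallest exact permutation p is 0.1, and shares of 1 family cannot move independently.

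In the JUN family Junb held a larger share, and Jund, the subunit that is expressed without a stimulus, a smaller one, in each cachectic mouse than in any control mouse. The Junb share was 26.3, 23.2 and 20.1% in control and 30.7, 33.2 and 29.7% in cachectic mice, means of 23.2 ± 3.12% and 31.2 ± 1.83% (SD, n = 3), with groups that did not overlap (exact permutation p = 0.1). The Jund share was 20.7 ± 0.826% in control and 13.2 ± 2.33% in cachectic mice, again without overlap. The Jun share was 56.1 ± 3.88% and 55.6 ± 0.608%. For Jund itself the edgeR log2 fold change was -0.35 (adjusted p = 0.271).

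In the FOS family the Fos share was 88.1 ± 1.41% in control and 80.1 ± 6.09% in cachectic mice, lower in each cachectic mouse than in any control mouse (exact permutation p = 0.1). The difference of -7.94 percentage points was -4.52 without cachexia replicate 3. Fosl2, a slower FOS protein that lacks the strong activation domain of Fos, took 2.92, 3.22 and 4.37% in control and 4.15, 7.93 and 18.3% in cachectic mice. The groups overlapped (exact permutation p = 0.2), and the difference of 6.63 percentage points was 2.54 without cachexia replicate 3. The edgeR log2 fold change of Fosl2 was 1.18 (adjusted p = 0.0872). The Fosb share was 7.81 ± 0.63% and 8.78 ± 1.21%, and the Fosl1 share 0.62 ± 0.223% and 0.969 ± 0.0947%.

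In the EGR family Egr1 held nearly the whole sum, 94.1 ± 1.91% in control and 98.7 ± 0.69% in cachectic mice. The Egr2 share was 2.87, 4.08 and 5.34% in control and 0.883, 0.931 and 0.137% in cachectic mice, and the Egr3 share was 0.975, 2.12 and 2.28% against 0.681, 0.821 and 0.37%. All 3 differences had groups without overlap (exact permutation p = 0.1). Egr3 itself was at 2.54, 7.56 and 5.55 CPM in control and 1.86, 1.96 and 0.458 CPM in cachectic mice (log2 fold change -1.86, SE 0.60, edgeR adjusted p = 0.0692). In the NR4A family the Nr4a3 share was 3.09, 6.59 and 8.55% in control and 5.74, 21.4 and 28.7% in cachectic mice, with groups that overlapped (exact permutation p = 0.3), and the Nr4a1 share was 88.7 ± 3.81% and 75.2 ± 12.3%. The Nr4a3 difference of 12.5 percentage points was 7.48 without cachexia replicate 3 and 18.9 without cachexia replicate 1, and the Nr4a1 difference of -13.4 was -9.55 and -20.5.

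**Figure D3:**
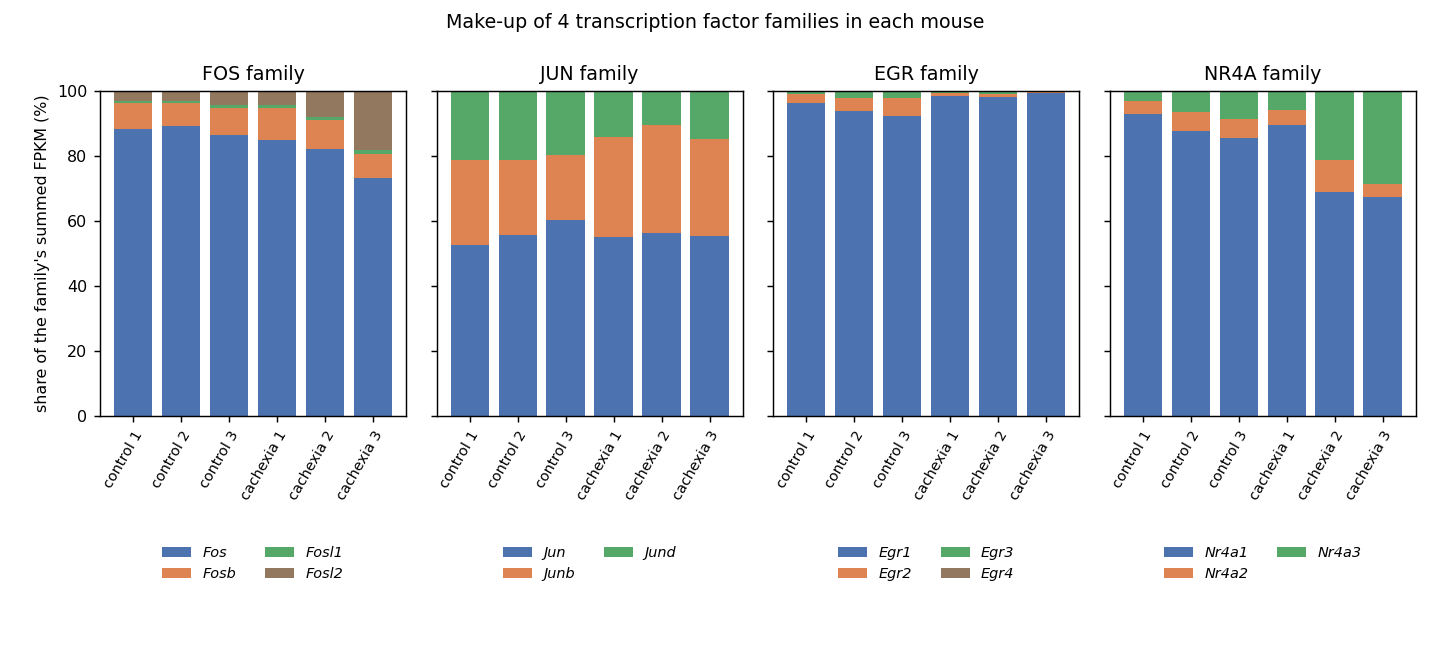
Share of each gene in the summed FPKM of the FOS, JUN, EGR and NR4A families (percent, linear axis from 0 to 100) in each of the 6 mice. The Junb share (orange, JUN family) is 20.1 to 26.3% in control and 29.7 to 33.2% in cachectic mice, and the Fosl2 share (brown, FOS family) reaches 18.3% in cachexia replicate 3.

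Around the 10 genes, 91 further genes of the immediate early response and its control were listed, 89 of which were tested. The lists were chosen with earlier results of these data known, so their shares and medians describe the listed genes only. Of these, 14 were higher and 5 lower in cachectic mice, 21.3% against 17.6% of all tested genes, and their median log2 fold change was 0.12. Under the 6 fits that leave out 1 mouse, 10 of these 19 genes were called in each fit and all 19 kept their direction in each. Of 8 other AP-1 genes, 1 was higher and 1 lower (median log2 fold change 0.55), and 3 were higher and 1 lower both at an unadjusted p under 0.05 and by DESeq2. Atf3, a stress-induced CREB-family factor that pairs with Jun, rose from 13.2, 18.4 and 18.4 to 39.0, 49.5 and 24.3 CPM (log2 fold change 1.17, SE 0.27, edgeR adjusted p = 0.0238). Its call held in 1 of the 6 fits, the one without cachexia replicate 3, and was lost in the other 5 with adjusted p up to 0.0769. Batf3, known from dendritic cells, fell from 4.19 to 5.43 CPM to 1.04 to 2.45 CPM (log2 fold change -1.35, adjusted p = 0.0459), a call that was lost in each of the 6 fits (adjusted p 0.0622 to 0.113).

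Of 12 other tested primary response transcription factors, Egr3 and Nr4a2 among them, 4 were higher and none lower (median 0.52). At an unadjusted p under 0.05, 6 were higher and 1, Egr3, was lower, with 5 and 1 by DESeq2 and 4 and 0 by limma-voom. Cebpd, a C/EBP factor of inflammation and early adipogenesis, rose from 51.7, 55.6 and 47.2 to 137, 175 and 365 CPM (log2 fold change 2.13, SE 0.35, edgeR adjusted p = 0.00807). Maff, a small MAF protein, rose from 6.88 to 9.39 CPM to 24.4 to 46.0 CPM (log2 fold change 2.10, adjusted p = 0.00315), and Csrnp1 rose from 6.45 to 7.53 CPM to 17.2 to 23.0 CPM (1.53, adjusted p = 0.00291). These 3 genes were called in each of the 6 fits that leave out 1 mouse. Ier5, a relative of Ier2, rose from 38.3 to 46.0 CPM to 63.7 to 87.8 CPM (log2 fold change 0.82, adjusted p = 0.0148) and lost its call without control replicate 2 or control replicate 3, with adjusted p up to 0.0758.

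Of 23 further primary response genes, listed here as effectors, 6 were higher and none lower (median 0.44, 19 of 23 above 0). At an unadjusted p under 0.05, 6 were higher and 1 lower, and DESeq2 and limma-voom each gave 6 higher and 0 lower. Sgk1, a kinase induced by serum and glucocorticoids, rose from 71.4, 80.3 and 70.5 to 547, 304 and 413 CPM (log2 fold change 2.51, SE 0.23, edgeR adjusted p = 0.0014). Apold1, an immediate early gene of endothelial cells, rose from 17.6 to 22.6 CPM to 90.3 to 128 CPM (2.46, adjusted p = 0.000878). Gadd45b, a stress sensor of the p38 pathway, rose from 10.4 to 10.7 CPM to 30.8 to 48.6 CPM (1.84, adjusted p = 0.0022). Nfkbia, the inhibitor that NF-kappaB induces against itself, rose from 63.5 to 69.7 CPM to 158 to 251 CPM (1.68, adjusted p = 0.00265). Per1, a clock gene that cAMP and glucocorticoids induce, rose from 37.1 to 43.8 CPM to 110.2 to 159 CPM (1.66, adjusted p = 0.00192). All 5 were called in each of the 6 fits that leave out 1 mouse, and in none did the groups overlap.

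Among 15 feedback regulators of MAP kinases and receptor tyrosine kinases, the group to which Dusp1 belongs by function, 2 were higher and 2 lower (median -0.12). Dusp10, a phosphatase of p38 and JNK, fell from 47.9, 80.5 and 57.7 to 14.4, 11.2 and 11.1 CPM (log2 fold change -2.35, SE 0.22, edgeR adjusted p = 0.00157). Dusp7, a phosphatase of ERK in the cytoplasm, fell from 37.2 to 40.2 CPM to 17.1 to 22.7 CPM (-0.91, adjusted p = 0.00805), and both kept their calls in each of the 6 fits. The ERK pathway inhibitors Spred3 (1.08, adjusted p = 0.0146) and Spry1 (0.86, adjusted p = 0.0335) were higher. Spred3 lost its call without control replicate 2 or 3, and Spry1 without control replicate 1 or 3 or cachexia replicate 1 or 2 (adjusted p up to 0.0719 and 0.131). The corepressors Nab1 and Nab2, which bind EGR proteins and damp them, gave log2 fold changes of -0.41 (adjusted p = 0.115) and -0.53 (adjusted p = 0.231). Of both, 1 was lower at an unadjusted p under 0.05 and 0 by DESeq2 or limma-voom.

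Of 21 upstream kinases and transcription factors that switch immediate early genes on, 1 was higher and 2 lower (median -0.05). At an unadjusted p under 0.05, 3 were higher and 4 lower, with 3 and 2 by DESeq2 and 1 and 2 by limma-voom. Rps6ka3, the ERK-activated kinase RSK2, fell from 268, 523 and 531 to 192, 180 and 153 CPM (log2 fold change -1.33, SE 0.27, edgeR adjusted p = 0.016). Elk1, the ERK target that sits with serum response factor on CArG boxes, fell from 24.0 to 30.6 CPM to 14.3 to 20.1 CPM (-0.76, adjusted p = 0.0261). Crtc2, a coactivator of CREB, rose from 46.0 to 48.4 CPM to 63.1 to 68.2 CPM (0.49, adjusted p = 0.0213). Without control replicate 2 or 3 none of the 3 was called, and Elk1 was also not called without cachexia replicate 2 or 3 (adjusted p up to 0.107). Of 8 acute heat shock genes none passed the test (median 0.04), with Hspa1a and Hspa1b high only in cachexia replicate 3 as given above. At an unadjusted p under 0.05, 2 of the 8 were higher, against 1 by DESeq2 and 0 by limma-voom.

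**Figure D4:**
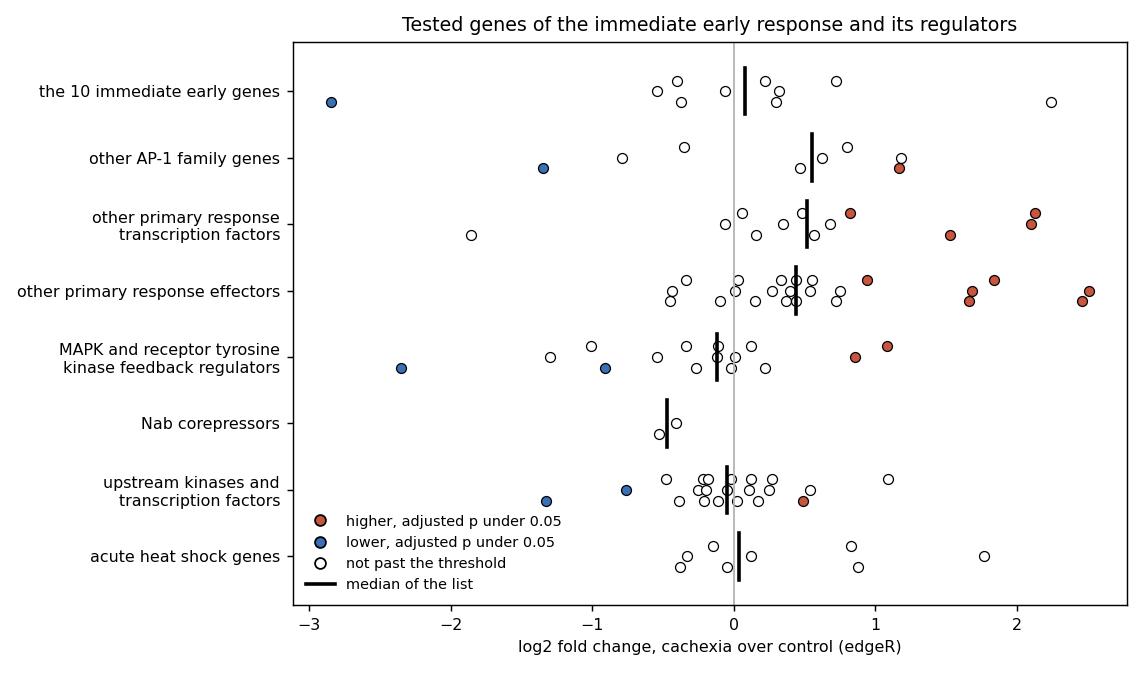
Log2 fold change (edgeR, cachectic over control mice) of each tested gene of the 10 immediate early genes and of the 7 lists around them. Each circle is 1 gene (red higher, blue lower, white not past the adjusted p of 0.05) and the vertical bar is the median of the list, 0.52 for the other primary response transcription factors and 0.44 for the effectors against 0.08 for the 10 genes.

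Bulk tissue holds many cell types, and in it fewer cells of a type and less RNA per cell cannot be told apart. Adipocyte markers, which check the labelled tissue, were abundant in each mouse as a sum (8 genes, summed level 15826 to 21047 CPM in control and 13545 to 25032 CPM in cachectic mice, 1 higher and 1 lower). Fabp4 was the largest value of that sum in each mouse, at 4918 to 14762 CPM in cachectic mice. Single markers moved apart: Cidec was higher (log2 fold change 0.87, edgeR adjusted p = 0.0322) and Lep lower (-3.14, adjusted p = 0.0475). Plin1 (-1.44, adjusted p = 0.057) and Retn (-0.60, adjusted p = 0.165) were lower without overlap of the groups but were not called. Markers of fat progenitors and fibroblasts moved in the same direction as Egr2. Of these, 4 of 6 were lower, with 5 lower and 0 higher at an unadjusted p under 0.05 and by DESeq2 and limma-voom, and their sum was 3088 to 4108 CPM in control and 402 to 870 CPM in cachectic mice. Most of that sum was Col1a1 and Col3a1, and without these collagens it was 548 to 566 CPM in control and 167 to 343 CPM in cachectic mice, with Dpp4 at a log2 fold change of -0.12 (edgeR adjusted p = 0.641). Neutrophil markers were higher in all 6 that were tested of 7, with sums of 27.3 to 47.1 CPM in control and 223 to 689.5 CPM in cachectic mice, the top value in cachexia replicate 3. That top value came from S100a8, S100a9 and Ngp (186, 339 and 106 CPM there), whereas Csf3r, Mmp9 and Ly6g were lower in cachexia replicate 3 than in the other cachectic mice and Cxcr2 was at 10.4 to 11.1 CPM in all 3. Ly6g, a defining marker, was at 0 CPM in the 3 control mice and at 0.393 to 0.613 CPM in cachectic mice. Erythroid markers were higher in 6 of 6, with sums of 252 to 448 and 1331 to 2851 CPM. Endothelial markers were higher in 2 of 6, or 5 of 6 by DESeq2 and at an unadjusted p under 0.05, with sums of 1257 to 1376 and 1754 to 2889 CPM, beside the higher Apold1. Macrophage markers were higher in 1 and lower in 1 of 6 (639 to 829.8 and 490 to 812 CPM). The part of these cell types in the values of the 10 genes was not tested.

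Of the remaining lists, smooth muscle and pericyte markers were lower in 1 of 6 (881 to 1201 and 449.5 to 736 CPM), and none of 6 mesothelial markers (269.6 to 361 and 155 to 352 CPM) and none of 6 T and B lymphocyte markers (8.76 to 12.6 and 5.01 to 7.54 CPM) was called by edgeR. At an unadjusted p under 0.05, 1 mesothelial and 3 lymphocyte markers were lower, and DESeq2 and limma-voom called 0 of either list. Epididymal epithelium markers, which would come from the neighbouring organ, were near 0, with sums of 0.859 to 3.34 CPM in control and 0.123 to 1.11 CPM in cachectic mice and none tested. Skeletal muscle markers summed to 58.7 to 103 CPM in control and 12.4 to 76.5 CPM in cachectic mice, with Myh4 at 0 in each mouse and 1 of 3 tested lower.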

How the data were processed

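RNA-seq of eWAT from 3 control and 3 cachectic mice was analyzed, with groups taken from the sample labels. The authors trimmed the paired-end reads, aligned them with Hisat2, counted them per gene with featureCounts (1.5.0-p3 per the submitters' processing notes) and deposited raw counts. The authors also deposited FPKM values, computed from count and gene length. The submitters' processing notes name mm9, but GENCODE M21 (build GRCm38) holds 99.8% of the gene identifiers of the files, 98.3% of them at identical positions. Gene coordinates are those of the files, and 9 of the 10 genes have the same coordinates in M21. A deposited table of the authors' own comparison (log2 fold changes and p-values from DESeq2 1.16.1) was not used.

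The counts were tested with edgeR 4.0.16 under R 4.3.3 (TMM factors, genes kept by filterByExpr, quasi-likelihood test, no covariate, Benjamini-Hochberg adjustment over 16003 genes, threshold 0.05). CPM use the TMM factors, which lay between 0.937 and 1.07. Single genes and family shares were tested with two-sided exact permutation tests, on log2(CPM + 0.5) and on percentages, and the common biological coefficient of variation was 0.264. Named genes are the 10 genes, up to 5 per direction with the smallest p among the called genes of each pathway list, and the 6 genes most like the mean profile of the 10. Relatives in the family comparison, Nab1, Nab2, the genes that overlap Jun and Junb, single marker genes, Hspa1a and Hspa1b lie outside this rule and were named after their values were seen. The 10 genes and the lists were chosen with earlier results of these data known.

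The alternatives were RLE size factors, library totals, no filter, at least 10 counts in every sample, the replicate number as a block, limma-voom (limma 3.58.1), DESeq2 1.42.0, limma on log2(FPKM + 1) and log2(FPKM + 0.1), a size threshold of 1 on the log2 scale, and each mouse left out in turn. No pair of samples agreed within sampling noise, so each counted once. Replicate numbers come from the labels, and same-numbered samples did not deviate together (r between -0.0112 and 0.00823). The scripts were tested on simulated counts.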

Additional observations from a re-analysis of the deposited data

How the results depend on the processing

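Egr2 kept its direction in 14 of 14 alternatives (log2 fold change -3.36 to -1.41, the last on log2(FPKM + 1), which understates the change of low genes, adjusted p 0.000119 to 0.0946) and its call in 9 of them. Junb was called in 2 of 15 (0.50 to 0.84, adjusted p 0.0151 to 0.152) and Nr4a3 in 3 of 15 (0.96 to 2.69, adjusted p 0.0322 to 0.216). The other 7 genes were called in none of 15. Of the 10 genes, 2 were called without a filter on low counts (Egr2 and Nr4a3), 2 by DESeq2 (Egr2 and Junb), and 0 with at least 10 counts in every sample, where Egr2 was not tested because 1 count is 2. Leaving out 1 mouse gave 0 to 1 called, with 0 without control replicate 2, control replicate 3 or cachexia replicate 2, and Nr4a3 in place of Egr2 without cachexia replicate 1. Over all tested genes, the 2821 calls became 828 to 2339 with 1 mouse left out (828 without control replicate 3, 1312 without control replicate 2) and 1609 with a size threshold of 1 on the log2 scale. The 19 called pathway genes became 10 to 22 with 1 mouse left out (10 without control replicate 3, 12 without control replicate 2). Fosb turned to 0.08 without control replicate 2 and 0.12 without cachexia replicate 3 (range -0.30 to 0.12), and Nr4a1 turned to -0.09 without cachexia replicate 3 (range -0.09 to 0.55). With the replicate number as a block, 2 of the 10 genes (Junb and Nr4a3) and 1881 of all genes were called, and Egr2 was at -3.03 (adjusted p = 0.0538). The labels do not pair the mice, and same-numbered mice did not deviate together. Under the other scalings and tools the median of all genes moved by at most 0.05. From counts not divided by gene length, an alternative added after the data were seen, the Fosl2 share was 15.4 percentage points higher in cachectic mice, in place of 6.63, the Fos share -15.2 in place of -7.94, and the Jund share -4.78 in place of -7.45. Apart from these, the cause of a changed call was not tested.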
